A study of Mus musculus with 6 samples.

Results

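The axon guidance ligands and receptors were the genes of 4 signalling families whose names in the table marked them as ephrins or Eph receptors, semaphorins of the classes Sema3 to Sema7, plexins or neuropilins, Slits or Robo receptors, or netrins, Unc5 receptors or Dcc. The members were chosen by name alone, and 68 of the 19613 genes measured qualified, of which 34 were ligands and 34 were receptors. They were measured on exon arrays in 6 samples of embryoid bodies (EBs), which are aggregates grown from mouse HBG3 embryonic stem cells in which Hb9, a gene of motor neurons, drives a green fluorescent protein. Retinoic acid and a Hedgehog agonist had turned part of the cells into spinal motor neurons, so each sample was a mixture of cell types. The EBs then spent about a day with blood fluid from presymptomatic male carriers of the strain B6CBA-Tg(HDexon1)62Gpb/3J, a Huntington's disease model that expresses the first exon of human huntingtin, and the fluid is called plasma in the sample labels but serum in the series title and the methods. All samples belonged to this single group, with the replicate numbers 2, 4, 5, 6, 7 and 8, and no group without this fluid was analysed here. The values below are therefore levels and their spread between arrays, not responses to the fluid. The study counts these as separate serum samples, so the spread between arrays can include differences between sera. The labels do not say whether the cultures were separate, and each p-value measures only the spread between these arrays, part of which may be technical.

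A growing axon reads its path through receptors on its growth cone, and the ligands that it meets are secreted or sit on the surface of neighbouring cells. Netrin-1 and the Slits are textbook products of the floor plate at the ventral midline of the spinal cord, where netrin draws commissural axons through Dcc and Slits drive them away through Robo receptors. Ephrins and semaphorins, acting through Eph receptors and through plexins with neuropilins, steer motor axons into their muscle targets, and the loss of a receptor can send such axons to a wrong territory.

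Across the arrays the median intensity over all genes ranged from 296 to 311. The average correlation of an array with the others over all genes was lowest in replicate 8, at 0.992, and at least 0.994 in the remaining arrays. Of all genes 65.2% had a mean above the background level that is defined below. Marker counts near that share say little about cell types. Of the motor neuron genes measured (Mnx1, Isl1, Isl2, Lhx3, Lhx4, Chat and Slc5a7) 7 of 7 were above background, and of the floor plate genes 8 of 8 were. Spon1 and Shh, secreted products of the floor plate, had mean log2 intensities of 12.60 and 12.10. Of 5 progenitor markers (Olig2, Nkx6-1, Sox1, Sox2 and Pax6) 4 were above background, with Pax6 at 6.89 under it. Of 7 endothelial markers 2 passed the background level, of 4 oligodendrocyte precursor markers 2 did, of 6 interneuron markers 5 did, and of 6 mesenchymal and endodermal markers 3 did.

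Most members were measured above background, and ligands of the Slit and netrin families took the top of the order. Background was set by olfactory receptor genes, which are mainly silent outside the nose, and the level that 95% of their means fell under was a log2 intensity of 7.47. Of the 68 members 63 had a mean above it, or 92.6%, whereas 65.2% of all genes did. The share was 31 of 34 among ligands and 32 of 34 among receptors. The 5 members under the level were Sema3e at 6.86, Efna1 at 7.19, Epha1 at 7.27, Epha6 at 7.31 and Ntn5 at 7.44, while Sema3g at 7.47 and Plxnb3 at 7.55 lay nearest above it. The median of the olfactory receptor genes was lower, from 5.44 to 5.61 over the arrays, so a place under the level does not show that a gene was silent. In limma's moderated one-sample test of each gene against the same olfactory percentile of its own array, adjusted over all genes, 61 members lay higher and 4 lower, where 62.6% of all genes lay higher and 32.9% lower. The 4 were Sema3e, Efna1, Epha1 and Epha6, and no array had any of them above its own background. Sema3e, whose product binds Plxnd1 directly, ran from 6.81 to 6.91 with a median of 6.86 and lay below by 0.63 ± 0.052 (SE, n = 6, limma adjusted p = 2.44e-07). Efna1 lay below by 0.30 ± 0.072 (SE, n = 6, limma adjusted p = 0.0020). Ntn5, Sema3g and Plxnb3 were not called in either direction (limma adjusted p = 0.38, 0.68 and 0.24). At an unadjusted p under 0.05, 65 of the 68 members differed from background in either direction, a share of 95.6% that equals that of all genes, 95.6%.

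Intensities of different genes rank them only roughly, because probes differ in how strongly they bind and the deposited value is a mean over exons with no use of gene length. Every array carries the same probes, so the SD of a difference between genes, here and below, does not cover this limit. With that limit, Slit2 stood above 99.5% of all genes, and Slit2, Slit1, Slit3 and Ntn1 held the first places in that order in each of the 6 arrays. Sema6a came next on average but lay above Plxna1 in only 3 of the 6. Slit2 lay above Slit1 by 0.14 ± 0.026 on the log2 scale, Slit1 above Slit3 by 0.55 ± 0.047, Slit3 above Ntn1 by 0.25 ± 0.039 and Ntn1 above Sema6a by 0.28 ± 0.068 (SD, n = 6 each). Farther down the steps became small against the spread. Of the 67 pairs of neighbours in the full order 15 kept their direction in all 6 arrays and 52 did not.

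**Figure D1:**
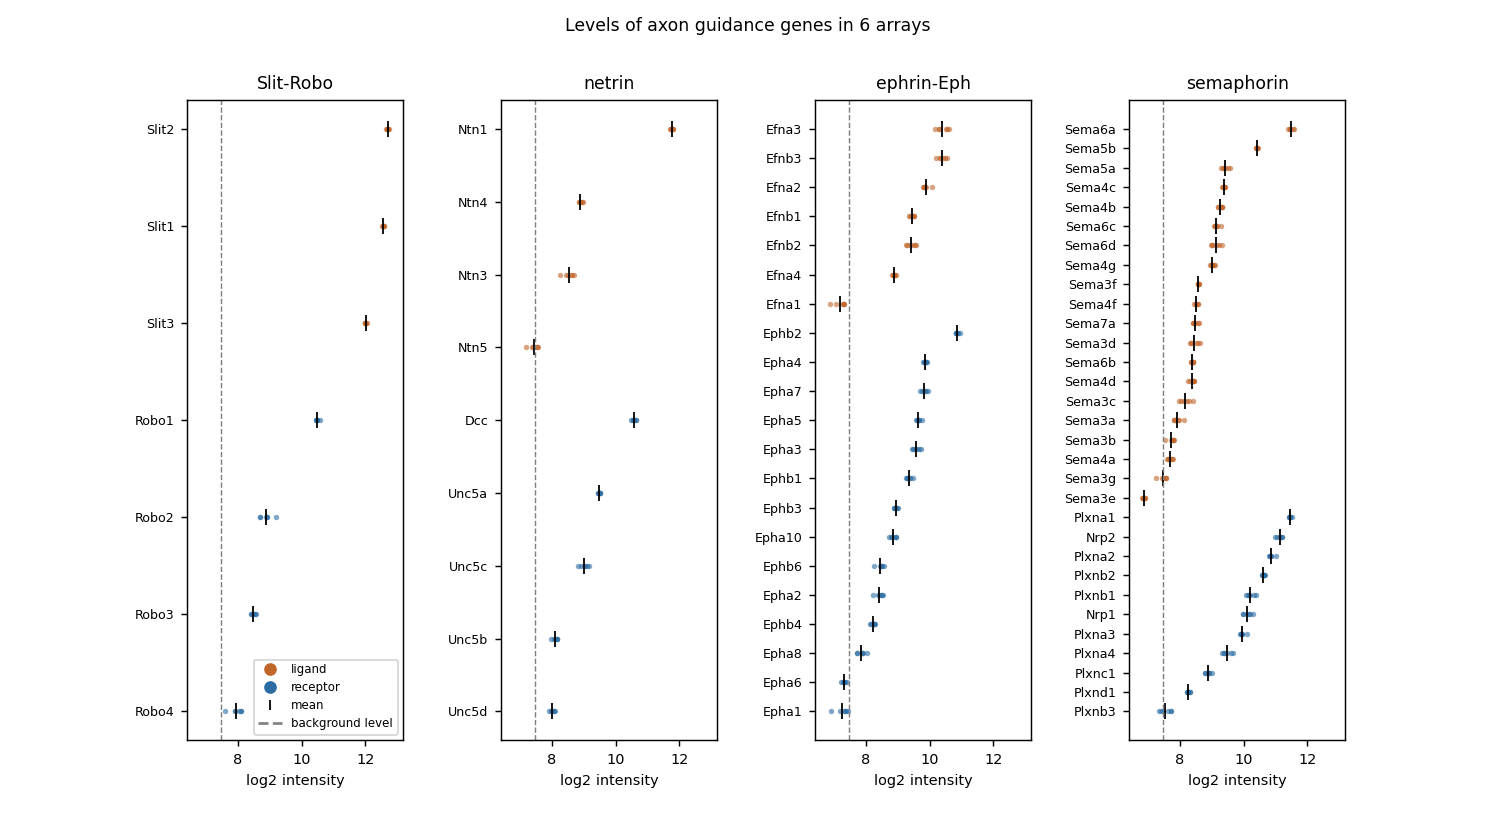
Each point is the log2 intensity (x axis) of a ligand (orange) or receptor (blue) on 1 of 6 arrays, grouped by family and ordered by mean (black bar), with the background level of 7.47 as a dashed line. The 3 Slits sit between 11.99 and 12.73, to the right of every other member, and 5 members have means left of the dashed line.

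The bases just before the start of these genes differed in a feature that the choice of members did not use, the number of CpG dinucleotides (the letters CG, which read the same on both strands). RefSeq promoter windows of the build GRCm38.p6 were at hand for 58 of the 68 members, the window with the most CpG was taken where a gene had several, and its 250 bases before the start were counted. Members with a mean over 10 on the log2 scale had a median of 20 CpG, and 0 of 11 held fewer than 10, while among all genes over that level the median was also 20 and 12.0% held fewer than 10. The class over 10 had lost the most windows, as those of Slit1, Ntn1, Sema6a, Plxna1, Dcc and Efnb3 were not at hand. Members above background and up to 8.5 had a median of 12 CpG and 7 of 17 held fewer than 10 (41.2%), close to the median of 12.5 and the 39.0% among all such genes. The windows of Slit2 and Slit3 are shown as members at the top of the order, that of Sema3a as a CpG-poor member near background, and that of Epha8 as a member near background with the most CpG of all 58. Capitals mark CG, and the sequences run 5′ to 3′ along the gene's strand.
Slit2: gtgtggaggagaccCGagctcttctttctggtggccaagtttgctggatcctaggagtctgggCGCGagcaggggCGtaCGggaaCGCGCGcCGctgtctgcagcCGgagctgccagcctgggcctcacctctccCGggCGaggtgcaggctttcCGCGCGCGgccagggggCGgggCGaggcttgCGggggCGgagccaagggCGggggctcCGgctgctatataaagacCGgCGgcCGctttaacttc
Slit3: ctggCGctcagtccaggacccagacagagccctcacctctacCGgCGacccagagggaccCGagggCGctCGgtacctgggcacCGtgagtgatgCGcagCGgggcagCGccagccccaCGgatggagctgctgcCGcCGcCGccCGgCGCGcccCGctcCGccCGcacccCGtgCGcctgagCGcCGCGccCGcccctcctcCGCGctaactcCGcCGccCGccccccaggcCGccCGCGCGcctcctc
Sema3a: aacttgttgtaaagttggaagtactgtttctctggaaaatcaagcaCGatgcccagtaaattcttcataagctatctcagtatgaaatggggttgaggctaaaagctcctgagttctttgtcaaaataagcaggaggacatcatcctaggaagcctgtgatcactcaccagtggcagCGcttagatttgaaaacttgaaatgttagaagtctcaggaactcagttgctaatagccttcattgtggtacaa
Epha8: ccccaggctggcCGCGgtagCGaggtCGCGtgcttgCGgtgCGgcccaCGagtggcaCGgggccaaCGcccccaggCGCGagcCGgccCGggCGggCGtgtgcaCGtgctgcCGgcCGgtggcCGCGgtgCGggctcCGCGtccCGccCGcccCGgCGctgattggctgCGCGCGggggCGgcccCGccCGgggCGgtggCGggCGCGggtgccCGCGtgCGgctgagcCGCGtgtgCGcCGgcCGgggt
The Slit2 window lies at chr5:47982905-47983154 on the plus strand and holds 25 CpG. The Slit3 window, at chr11:35121206-35121455 on the plus strand, holds 35. The Sema3a window, at chr5:13396534-13396783 on the plus strand, holds 2, and this repellent of motor axons had a mean level of 7.92. The Epha8 window, at chr4:136956817-136957066 on the minus strand, holds 46, and the gene had a mean level of 7.86. A count of CpG is a property of these letters and was not read here as a measure of promoter use.

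**Figure D2:**
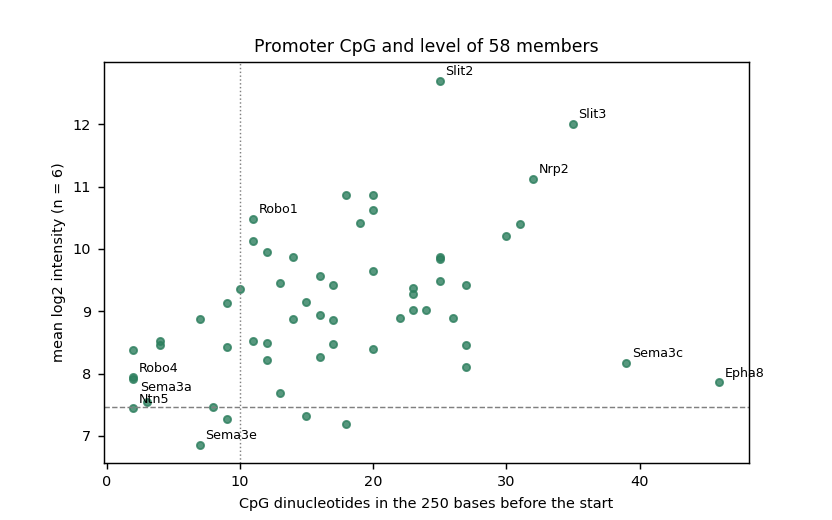
Each point is 1 of 58 members, with the CpG dinucleotides in the 250 bases before its start on the x axis and its mean log2 intensity over 6 arrays on the y axis. The dashed line is the background level of 7.47 and the dotted line marks 10 CpG, and no member over a level of 10 lies left of the dotted line whereas Sema3c and Epha8 combine 39 and 46 CpG with levels of 8.18 and 7.86.

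In the Slit and Robo family the ligands exceeded all receptors. Slit2, which repels commissural axons once they have crossed the midline, ran from 12.64 to 12.73 with a median of 12.71. Slit1 ran from 12.53 to 12.59 with a median of 12.56, and Slit3 from 11.99 to 12.06 with a median of 12.00. These ranges did not overlap, and the SDs of 0.034, 0.024 and 0.030 were small among members. In these bulk samples a gene's level cannot tell a larger number of cells of a type from more RNA per cell. Among the receptors Robo1 was highest, from 10.45 to 10.58 with a median of 10.48. Robo2, which acts beside Robo1 in Slit repulsion, ran from 8.70 in replicates 6 and 7 to 9.20 in replicate 5, with a median of 8.89 and an SD of 0.18. Robo1 thus lay above Robo2 by 1.61 ± 0.19 (SD, n = 6), or 3.05-fold, in all arrays. Robo3, which holds back Slit repulsion in commissural axons before they cross, ran from 8.40 to 8.56 with a mean of 8.49, and lay under Robo2 by 0.39 ± 0.18 (SD, n = 6) in all arrays.

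Robo4, a Robo of blood vessels, ran from 7.58 to 8.09 with a median of 7.98 and had the largest SD of the members above background, 0.19. It was lowest in replicate 8 and between 7.90 and 8.09 in the other arrays. Of the endothelial markers 2 of 7 passed the background level, where 65.2% of all genes did. Tie1, which lay higher than Robo4 and above 54.9% of all genes, and Cdh5 at 7.72 passed it, whereas Pecam1, Kdr, Tek, Esam and Cldn5 had means from 5.92 to 7.37, and the summed intensity of the 7 genes ran from 1065 to 1194 over the arrays.

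The netrin family was led by its best known ligand. Ntn1 ran from 11.71 to 11.79 with a median of 11.76 and lay above Ntn4, a netrin with laminin-like parts, by 2.86 ± 0.049 (SD, n = 6), or 7.27-fold. Ntn4 had a mean of 8.90 ± 0.046 and Ntn3 of 8.52 ± 0.16 (SD, n = 6 each). Ntn3 spread more widely, from 8.26 in replicate 8 to 8.71 in replicate 6. Dcc, the receptor through which netrin attracts, ran from 10.47 to 10.65 with a median of 10.56. It exceeded Unc5a, the highest of the Unc5 receptors through which netrin repels, by 1.08 ± 0.051 (SD, n = 6), or 2.12-fold, in all arrays. Unc5a ran from 9.46 to 9.52 with a median of 9.49 and Unc5c, which is used by motor axons, from 8.82 to 9.18 with a median of 9.03. Both lay above Unc5b at 8.11 and Unc5d at 8.02, whose difference of 0.091 ± 0.13 (SD, n = 6) was within the spread and had its direction in 4 of 6 arrays.

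Among ephrins, Efna3 and Efnb3 had the highest levels. Efna3, a membrane-anchored ligand of EphA receptors, ran from 10.17 in replicate 7 to 10.60 in replicate 5, with a median of 10.40. Efnb3, a transmembrane ephrin of the spinal midline, ran from 10.21 in replicate 5 to 10.54 in replicate 7, with a median of 10.38. The order of this pair thus turned between arrays, and each had the array that was the other's extreme as its own opposite extreme. Efnb3 lay above Efnb2 by 0.96 ± 0.24 (SD, n = 6), or 1.95-fold, in all arrays, while Efnb1 at 9.45 and Efnb2 at 9.42 did not differ beyond their spread (0.025 ± 0.13, SD, n = 6, first higher in 4 of 6). Efna2 ran from 9.80 to 10.07 with a median of 9.84 and was highest in replicate 8. Efna4 was lower, at 8.88 ± 0.042 (SD, n = 6).

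Of 14 Eph receptors 12 were above background, which comprised 7 of 9 EphA and 5 of 5 EphB genes. Ephb2, a receptor of ephrin-B ligands, was highest, from 10.82 to 10.95 with a median of 10.86, and lay above Ephb1, which guides limb motor axons to ventral muscle, by 1.52 ± 0.064 (SD, n = 6), or 2.87-fold. Ephb1 ran from 9.27 to 9.46 with a median of 9.34. Epha4, which sends limb motor axons to dorsal muscle, ran from 9.80 to 9.93 with a median of 9.87. Epha7 ran from 9.71 to 9.94 with a median of 9.84, and Epha3, a receptor of motor neurons that supply axial muscle, from 9.44 to 9.72 with a median of 9.56. Epha4 and Epha7 could not be ordered, as they differed by 0.038 ± 0.084 (SD, n = 6) with Epha4 higher in 3 of 6 arrays. The remaining EphB genes had means of 8.94 for Ephb3, 8.45 for Ephb6 and 8.22 for Ephb4. Epha5 at 9.65, Epha10 at 8.86, Epha2 at 8.42 and Epha8 at 7.86 made up the rest of the EphA genes above background.

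The 20 semaphorins spanned the widest range of levels of any ligand group, from Sema6a to Sema3e. Sema6a, a transmembrane semaphorin that signals through plexin-A receptors, ran from 11.38 to 11.60 with a median of 11.45. It lay above the next member of its class, Sema6c, by 2.33 ± 0.037 (SD, n = 6), or 5.03-fold, in all arrays. Sema5b, a transmembrane semaphorin with thrombospondin repeats, was second at 10.42 ± 0.027 (SD, n = 6) and lay above Sema5a by 0.99 ± 0.10 (SD, n = 6). Sema4c was highest of the Sema4 class at 9.37 ± 0.038, and Sema7a, which is anchored in the membrane by a lipid, had 8.48 ± 0.073 (SD, n = 6 each).

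The secreted Sema3 class, the classical repellents of motor and sensory axons, had the lowest median of the semaphorin classes, at 8.05 ± 0.13 over its 6 genes above background (SD, n = 6). Sema3f, which acts through Nrp2, ran from 8.56 to 8.61 with a median of 8.57 and had the smallest SD of any member, 0.020. Sema3a, which acts through Nrp1, ran from 7.81 to 8.14 with a median of 7.89, and was highest in replicate 8. Sema3f lay above Sema3a by 0.66 ± 0.14 (SD, n = 6), or 1.58-fold, in all arrays. Sema3d at 8.46 and Sema3f were not separated in every array, with Sema3f higher in 5 of 6. Sema3c ran from 7.98 to 8.41 with a median of 8.17 and Sema3b from 7.52 to 7.82 with a median of 7.78. Replicate 8 was the top array for Sema3a, Sema3c and Sema3d and the bottom array for Sema3b and Sema3g.

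The receptors of the semaphorins stood higher than their ligands as a group. Plxna1, which carries the signal of neuropilin-bound Sema3 proteins, ran from 11.43 to 11.53 with a median of 11.45. Plxna2 ran from 10.80 to 11.01 with a median of 10.85, Plxna3 from 9.89 to 10.12 with a median of 9.92 and Plxna4 from 9.33 to 9.66 with a median of 9.43. Plxna1 lay above Plxna2 by 0.59 ± 0.048, and Plxna2 above Plxna4 by 1.40 ± 0.10 (SD, n = 6 each), in all arrays. Of the neuropilins, Nrp2 ran from 10.98 to 11.22 with a median of 11.15 and Nrp1 from 9.98 to 10.28 with a median of 10.14. Nrp2 lay above Nrp1 by 1.01 ± 0.099 (SD, n = 6), or 2.01-fold, in all arrays. Plxnb2, a receptor of Sema4 proteins, had 10.62 ± 0.033 and Plxnb1 10.21 ± 0.12, while Plxnc1, a receptor of Sema7a, had 8.89 ± 0.084 (SD, n = 6 each). Plxnd1 ran from 8.23 to 8.32 with a median of 8.25 and so was measured above background where its ligand Sema3e was not, which does not show that Sema3e was absent.

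The balance of receptors and ligands differed in direction between the families. Within each array the median of the receptors above background was set against that of the ligands above background. Over all families receptors were higher by 0.30 ± 0.030 (SD, n = 6) in all 6 arrays. In the semaphorin family the difference was 1.56 ± 0.055, with receptors higher in all 6. In the Slit and Robo family it was −3.88 ± 0.12 and in the ephrin and Eph family −0.53 ± 0.066, with receptors lower in all 6 arrays of both. For netrins it was 0.11 ± 0.11, higher in 5 arrays and lower in 1, so that no direction held beyond the spread (SD, n = 6 each). With so few genes these netrin medians were the levels of Unc5c and Ntn4, whereas Ntn1 at 11.76 lay above Dcc at 10.57, the highest netrin receptor. Single genes could also go against the direction of their family, as Ephb2 at 10.87 lay above Efna3 at 10.40, the highest ephrin. The median of the 4 Robo receptors lay between Robo2 at 8.88 and Robo3 at 8.49. Robo1, the highest of them at 10.49, lay nearer to the lowest Slit, Slit3 at 12.01, but still under it. With all 68 members in place of those above background, the netrin difference was 0.30 ± 0.18 and receptors were higher in all 6 arrays (SD, n = 6). These are medians of probes of different strength, and they do not compare molecules of ligand with molecules of receptor.

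**Figure D3:**
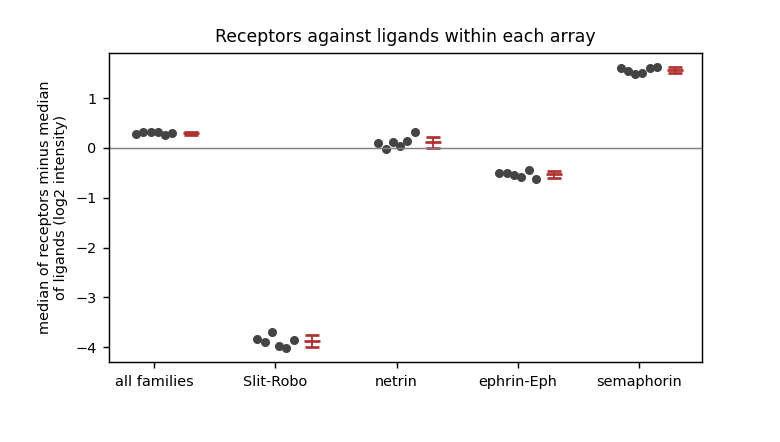
Grey points give, for each of 6 arrays from replicate 2 on the left to replicate 8 on the right, the median log2 intensity of receptors minus that of ligands above background (y axis), over all families and in each family. Red bars give the mean ± SD, from −3.88 for Slit and Robo genes to 1.56 for semaphorins with their plexins and neuropilins.

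Members varied between arrays about as much as other genes did. In log2 units the median SD was 0.075 for the 63 members above background and 0.076 for all genes above background, and 0 of the 63 had an SD over 0.2, where 4.16% of all genes above background did. Spread fell with level, from a median SD of 0.11 for the 19 members with means up to 8.5 to 0.046 for the 17 with means over 10, beside 0.11 and 0.058 for all genes in those ranges. The exceptions at a high level were Efna3 with an SD of 0.17 and Efnb3, Nrp1 and Plxnb1 with 0.12 each. Without replicate 8 the median SD of the members was 0.058.

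**Figure D4:**
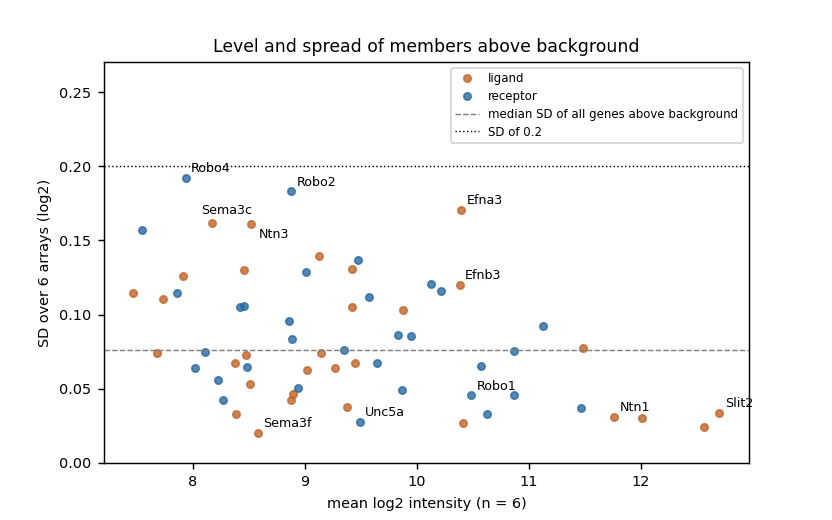
Each point is 1 of the 63 members above background, with its mean log2 intensity on the x axis and its SD over 6 arrays on the y axis, ligands in orange and receptors in blue. The dashed line is the median SD of all genes above background, 0.076, and every member lies under the dotted line at 0.2, with Robo4 (0.19), Robo2 (0.18) and Efna3 (0.17) nearest to it.

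Replicate 8 was the array in which members most often had their extreme value. It was the highest or the lowest array in 40 of the 63 members above background, or 63.5%, and in 54% of all genes above background. Its olfactory percentile was 7.26, where the other arrays had 7.42 to 7.60, and its median intensity was the lowest of the 6. In 5 of the 63 members (7.94%) 1 array stood apart from the others by Dixon's criterion, in each case replicate 8, where 6.97% of all genes above background had such an array. The part of the array-wide values in the members' differences was not tested. Among the 17 members with means over 10, replicate 8 exceeded the mean of the other 5 arrays in 16, with a median difference of 0.090, while over all genes of that level the median was 0.032 and 65.6% were higher. It was the highest array in 10 of these 17 (58.8%), beside 34.1% of all genes over 10. The exception of the 17 was Slit3. Among the 19 members up to 8.5, 11 were lower in replicate 8, with a median difference of −0.045 against −0.095 over all genes of that level, and it was the lowest array in 8 of them (42.1%), beside 48.7% of all genes. After quantile normalization of the arrays the median difference of the members over 10 was 0.066, with 14 of 17 higher, against 0.0065 over all genes, and after median centring it was 0.15, with 17 of 17 higher, against 0.089.

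**Figure D5:**
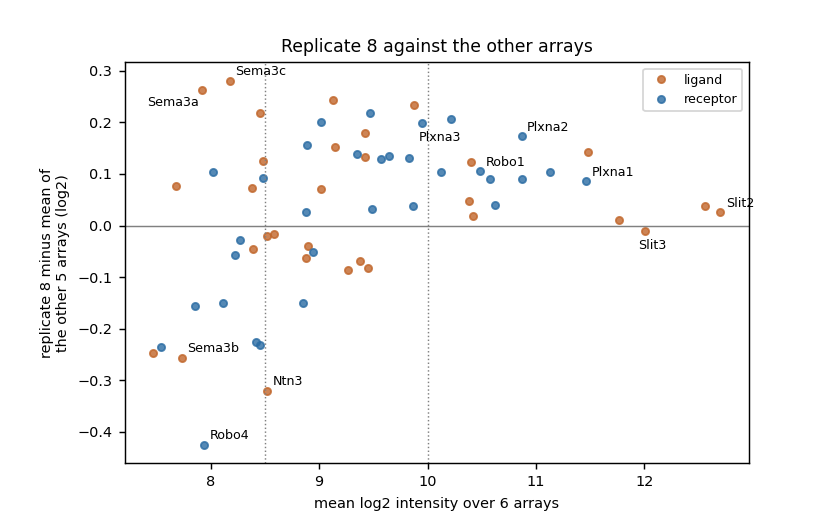
For the 63 members above background the y axis gives the log2 intensity in replicate 8 minus the mean of the other 5 arrays, and the x axis the mean over 6 arrays, with dotted lines at 8.5 and 10. Right of the line at 10, 16 of 17 members lie above 0, and the largest departures downwards (Robo4) and upwards (Sema3c) lie left of the line at 8.5.

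The way members moved together followed the same arrays. The first principal component of the 63 members held 52.1% of their variance between arrays, and replicate 8 supplied 70.0% of its squared loadings, beside 47.4% and 63.9% over all genes above background. Its 5 largest scores on the side that was higher in replicate 8 were of the ligands Sema3c, Sema3a, Sema3d, Sema6d and Sema5a. Those on the opposite side were of the receptors Robo4 and Plxnb3 and the ligands Ntn3, Sema3g and Sema3b. The next component held 23.2% and set replicate 7 against replicate 5, and over all genes above background it held 21.3%, with 59.1% of its squared loadings in replicate 5 against replicates 7 and 6. Efnb3, Nrp1, Plxna4, Sema6d and Plxnb3 were toward replicate 7, and Robo2, Efna3, Efnb2, Sema4d and Efnb1 were toward replicate 5. Nrp1 and Plxna4 form a receptor for Sema3a, and both were lowest in replicates 4 and 5 and had 10.28 and 9.62 in replicate 7. In replicate 8 they had 10.21 and 9.66, which was the highest value of Plxna4 but not of Nrp1. Plxna1 and Plxna3 were lowest in replicate 6 instead. These shares describe the 6 arrays and carry no test.

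No member followed the motor neuron mean or the floor plate mean beyond the adjusted threshold. The motor neuron mean is the average level of Olig2, Isl1, Lhx3 and Mnx1, the motor neuron-related genes that the study's methods use to correct for batches of neurons. Olig2 was counted above among the progenitor markers, and neither mean is a measure of cell content. The motor neuron mean differed by at most 0.20 on the log2 scale between arrays, and that of the 8 floor plate markers by at most 0.10, so the arrays offered little contrast. In limma's fit on the motor neuron mean, adjusted over all genes above background, 0 of 63 members and 0% of all 12789 genes passed. At an unadjusted p under 0.05 there were 2 members, Robo2 and Efnb2 (3.17%), beside 3.98% of genes. On the floor plate mean 0 of 63 members and 0% of 12785 genes passed, and 6 members (9.52%) had an unadjusted p under 0.05, where 4.68% of genes did. The slopes of Nrp1, Plxna4, Efnb3, Sema6d and Sema4a were positive and that of Efnb1 was negative. Nrp1 had the smallest unadjusted p of the members on the floor plate mean, with a slope of 3.31 ± 0.69 log2 units per unit (SE, n = 6, limma adjusted p = 0.68).

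Other genes of the pathway were mostly above background too. Of 61 further genes listed for the pathway 57 were in the table and 56 of these were above background, where 65.2% of all genes were. This was 19 of 19 for adhesion molecules and co-receptors and 37 of 38 for intracellular genes. The share of all genes includes the 1032 olfactory receptor genes that set the level, and a level above background does not show that the pathway was at work. Among the adhesion molecules and co-receptors Rgma, the ligand of neogenin, a relative of Dcc, had 12.23 ± 0.090, Neo1, which encodes neogenin, 11.67 ± 0.030, and the adhesion molecule Ncam1 12.10 ± 0.043 (log2 intensity, SD, n = 6 each). L1cam, an adhesion molecule of axons and a partner of Nrp1, had 10.97 ± 0.084 (SD, n = 6). Within the cell, the GTPases Rhoa and Cdc42, which receive the signals of plexins and Robo receptors, had 13.00 ± 0.025 and 12.86 ± 0.052, and Dpysl2, the semaphorin response protein also called CRMP2, had 12.65 ± 0.073 (SD, n = 6 each). The Slit and Robo effectors Srgap3, Srgap1 and Srgap2 had 11.29 ± 0.026, 10.57 ± 0.033 and 9.52 ± 0.053 (SD, n = 6 each). The gene under background was Farp2, an effector of semaphorin receptors, at 7.44 ± 0.027 (SD, n = 6).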

How the data were processed

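RNA of 6 samples, which the labels place in 1 group, was hybridized to Affymetrix exon arrays. The deposited intensity values are linear. Per the study's methods the authors ran Robust Multi-array Averaging (RMA) in Aroma Affymetrix and averaged all exons of a gene. The methods also name Affymetrix Expression Console, which the submitters' processing notes list with RMA, for a screen of each batch of EBs that removed outlying arrays by Grubbs' test. Which arrays shared the RMA run of these 6, the batch of each and the genome build are not given in the sources used here. The table held 0 columns of other samples. Arrays give no read depth, and their number limits the precision.

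Altered gene names were restored for 562 genes. Of 19613 names 17541 were current symbols in RefSeq tables of GRCm38.p6, which gave names and promoter windows. Their orientation was checked on 1627 overlapping windows of opposite strands, of which 0 disagreed. Efna5, Slc18a3, Draxin, Ntng1, Ntng2 and Nck2 were not analysed here. The log2 of each value was taken, without a pseudocount. The background level was the 95th percentile over 1032 olfactory receptor genes of their mean log2 value, a linear intensity of 177, and a gene was above it by its mean. Tests against background and slopes used limma 3.58.1 in R 4.3.3, two-sided, with Benjamini-Hochberg adjustment over all genes tested and calls at 0.05, and other steps Python 3.11.15. The fits were tested on simulated data. Scores over members were given no p-value. No batch is given in the labels, so nothing could be computed within batches.

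Members named with full values were the highest above background in each class and subfamily, those with a textbook role in motor or commissural axon guidance, those with an SD over 0.2, with 1 array standing apart or called in a slope test, and those nearest background, 38 in all. Robo4, Sema3c and Ntn3 were given their range as well, and Epha8 its promoter, which was decided after their values were seen. Other members are named by count or mean. The members, the lists and the tests were chosen with earlier results of these data known, and so are no independent support. The alternatives were other background levels, no filter, quantile normalization, median centring and leaving out each array.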

Additional observations from a re-analysis of the deposited data

Results flagged for a closer look

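In 8 of the 97 sets of 6 values screened, the gap between an extreme array and its nearest neighbour took a larger share of the whole range than Dixon's 95% critical value for 6 samples allows. By chance about 1 set in 20 does so, or 4.85 of 97. Among the 63 members above background 5 were picked out, or 7.94%, where 6.97% of all genes above background were.

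Replicate 8 stood above the others for Plxna1 (ratio 0.710, at 11.53 against at most 11.46), Plxna2 (0.663, at 11.01 against at most 10.87), Plxna3 (0.686, at 10.12 against at most 9.96) and Robo1 (0.669, at 10.58 against at most 10.49). It stood below them for Sema3b (0.655, at 7.52 against at least 7.72). The median of the plexin-A receptors was 10.57 in replicate 8 and 10.37 to 10.41 in the others (0.776), and 3 of the 4 genes behind it are those just named. After quantile normalization Plxna1, Robo1 and Sema3b had ratios of 0.599, 0.358 and 0.481, under the critical value, whereas Plxna2 and Plxna3 had 0.654 and 0.726. After median centring all 5 stayed above it.

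The median of the Sema4 ligands was lowest in replicate 4, at 8.69 against 8.78 to 8.80 (0.771). The mean of the oligodendrocyte precursor markers, of which Pdgfra and Gpr17 were under background, was lowest in replicate 8, at 7.13 on the log2 scale (0.651).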

How the results depend on the processing

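The receptor minus ligand difference over all families was 0.245 with no filter, 0.360 with background at the 99th percentile and 0.258 to 0.310 with 1 array left out (0.258 without replicate 8), positive throughout. The median SD of members was 0.0575 to 0.0798 with 1 array left out, the lowest without replicate 8. The count of members above background was 51 at the 99th percentile, 67 at the 90th, 61 when every array had to pass and 62 to 63 with 1 array left out. The count tested above background was 42 at the 99th percentile. The counts of members in the slope tests were 0 under every alternative run, of which the exact permutation over 720 pairings bears little weight, since its smallest p could hardly pass adjustment over so many genes. All 544 alternative levels of the 68 members lay within 1 SD of the reported value, but this count says little. Median centring leaves a mean over the 6 arrays unchanged, and leaving out 1 array cannot move it by 1 SD. Only quantile normalization could have failed this check. The settings for the levels of members outside the 38, the components, the replicate 8 differences and the Dixon ratios were chosen after seeing the data, and without replicate 8 the first component of members held 42.8% of the variance. No paired analysis was possible because the labels give a single group. With 6 arrays and no control group, neither a response to the fluid nor its absence can be read from these levels.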
